A study of Mus musculus with 10 samples.

Results

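The 10 genes described here encode the MHC class I pathway of the mouse: the heavy chains H2-K1, H2-D1 and H2-T23, the light chain B2m, the peptide transporter Tap1 and Tap2 with its bridging chaperone Tapbp (tapasin), and the immunoproteasome subunits Psmb8, Psmb9 and Psmb10. They were chosen by symbol, and all 10 were found among the 26264 genes of the expression table. All 10 also passed the filter on low values, as did 12751 genes in all. Class I molecules display peptides of the cell's own proteins at the surface. The proteasome cuts proteins into peptides, the transporter carries these into the endoplasmic reticulum, and tapasin holds an empty heavy chain and light chain beside it until a peptide is bound. Interferons raise transcription of the whole pathway and exchange the catalytic proteasome subunits for the immunosubunits. On brain endothelium, class I molecules are what a CD8+ T cell in the bloodstream can recognise.

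The study asked how loss of microglia affects brain vessels. C57BL6 mice received either a control diet or a diet with 1200 ppm of PLX5622, a small-molecule inhibitor of the kinase CSF1R on which microglia depend, for 1 month. CD31+ cells were sorted by flow cytometry from brains without meninges, cerebellum and olfactory bulbs, and polyadenylated RNA was sequenced without strand information from 3 males and 2 females per diet, 10 libraries in all. The sources used here state neither the ages of the mice nor whether a library holds cells of 1 mouse or of a pool, and the inhibitor also reaches other cells that carry CSF1R. In bulk libraries, fewer cells of a type and less RNA per cell cannot be told apart.

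The libraries held 26.4 to 61.5 M recovered gene reads (M, 1000000 reads). Markers of endothelium summed to 22528 to 23809 TPM in every library (TPM, transcripts scaled by gene length to a total of 1000000 per library), led by Cldn5, the main claudin of the blood-brain barrier, so the labelled cell type was present at an even level. Microglial markers (17 genes) summed to 40.9 to 49.1 TPM on PLX5622 and to 54.9 to 232 TPM on control diet, and 7 of the 17 were at 0 in every PLX5622 library. The library labelled control female 1 stood apart: it held the lowest of the control sums, and its Csf1r level of 0.0689 TPM lay within the 0 to 0.461 TPM of the PLX5622 libraries, against 6.78 to 20.2 TPM in the other 4 control libraries. Its microglial markers thus went against its diet label, and whether that label is right was not tested. It counts as a control in all means and estimates below, and the tests of the class I genes are also given without it.

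Class I promoters are known to carry elements for NF-kappa-B and for interferon-induced factors, and matches to both were looked for. RefSeq windows of 300 bases (GRCm38.p6, 250 bases before the transcription start to 50 after it, read along the gene) were found for 9 of the 10 genes. The windows of H2-K1 (chr17:34000298-34000597, minus strand), H2-D1 (chr17:35262844-35263143, plus strand) and B2m (chr2:122147437-122147736, plus strand) are shown because B2m protein pairs with the heavy chains at the surface. The capitals mark matches to an NF-kappa-B-type motif, GGGA and then CC after any 4 bases, and to the interferon response element. The latter was searched in a longer form, GAAA and again GAAA after any 2 bases, and in the shorter form GAANNGAAA. All motifs were searched on both strands, and overlapping matches were merged.
H2-K1: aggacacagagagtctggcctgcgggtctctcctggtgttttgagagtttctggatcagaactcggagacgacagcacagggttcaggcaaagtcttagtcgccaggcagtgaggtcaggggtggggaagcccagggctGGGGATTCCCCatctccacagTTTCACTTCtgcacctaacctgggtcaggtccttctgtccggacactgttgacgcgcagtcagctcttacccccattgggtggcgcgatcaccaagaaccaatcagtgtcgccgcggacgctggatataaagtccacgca
H2-D1: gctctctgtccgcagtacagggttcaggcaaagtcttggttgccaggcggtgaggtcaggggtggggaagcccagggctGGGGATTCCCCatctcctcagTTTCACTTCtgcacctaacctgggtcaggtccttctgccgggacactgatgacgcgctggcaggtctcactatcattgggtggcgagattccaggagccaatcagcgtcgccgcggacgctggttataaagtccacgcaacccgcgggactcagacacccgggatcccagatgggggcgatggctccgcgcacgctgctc
B2m: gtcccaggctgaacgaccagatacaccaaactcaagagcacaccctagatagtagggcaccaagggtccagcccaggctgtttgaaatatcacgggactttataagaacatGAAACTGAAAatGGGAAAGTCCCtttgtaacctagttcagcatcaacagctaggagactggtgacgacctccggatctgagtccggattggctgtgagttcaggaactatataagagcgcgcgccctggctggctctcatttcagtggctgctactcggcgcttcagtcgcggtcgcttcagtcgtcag

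H2-K1 and H2-D1 carried the same pair of matches, GGGGATTCCCC followed after 10 bases by TTTCACTTC, at 111 to 82 bases before the start of H2-K1 in the printed window, 125 to 96 bases before its other RefSeq start, and 171 to 142 bases before that of H2-D1. In B2m the order was turned around, with GAAACTGAAA followed after 2 bases by GGGAAAGTCCC. H2-T23 held an interferon element of the longer form, TTTCTCTTTC on the printed strand, without the NF-kappa-B-type motif. Among all 32851 RefSeq windows of this length, the longer interferon form was found in 3.44%, the shorter in 7.52% and the NF-kappa-B-type motif in 20.7%. The shorter interferon form was added after the promoters had been looked at. These matches are letters in a window, and no binding was measured.

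The genes of the transporter and immunoproteasome are arranged differently. Psmb9, Tap1, Psmb8 and Tap2 follow each other on chromosome 17 within the MHC, and Psmb9 and Tap1 point away from each other from a shared stretch. Below is the Psmb9 window (chr17:34187281-34187580, minus strand, GRCm38.p6), of which 275 bases also belong to the window of Tap1; the capitals mark the 225 bases between the starts of the 2 genes.
Psmb9: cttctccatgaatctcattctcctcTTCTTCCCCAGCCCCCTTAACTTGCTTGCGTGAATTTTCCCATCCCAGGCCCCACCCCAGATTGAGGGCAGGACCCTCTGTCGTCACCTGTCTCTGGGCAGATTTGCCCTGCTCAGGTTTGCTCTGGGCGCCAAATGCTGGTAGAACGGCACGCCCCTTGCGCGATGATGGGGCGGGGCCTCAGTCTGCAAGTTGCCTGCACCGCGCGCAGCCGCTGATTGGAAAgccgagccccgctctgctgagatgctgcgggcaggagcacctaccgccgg
None of the interferon or NF-kappa-B-type letters searched was found in this shared stretch or in the windows of Tapbp and Psmb10. The window of Psmb8 held TTCCCAGAA, a match to the STAT-type motif TTCNNNGAA, which was present in 8.30% of all windows. The CCAAT box was found in 7 of the 9 genes with a window, against 37.4% of all windows, and TGACG, the core of the cyclic AMP response element, in 5 of the 9, against 20.8%. In both counts Tap1 and Psmb9 are represented by the same site in their shared stretch.

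Sorted brain endothelial cells of control mice carried high levels of class I transcripts. B2m was the most abundant at 3384 ± 609 TPM (SD, n = 5) and ranked 21 among the 12751 genes tested. H2-K1, one of the classical heavy chains, followed at 1258 ± 138 TPM (rank 90). H2-D1, the other classical heavy chain, stood at 525 ± 66.0 TPM and H2-T23, the non-classical chain that presents leader peptides to NKG2A receptors of natural killer cells, at 517 ± 48.6 TPM. The genes of peptide supply were lower: Tapbp 213 ± 10.3, Tap2 185 ± 16.7 and Tap1 55.3 ± 8.55 TPM, with the immunosubunits Psmb10 at 140 ± 14.2, Psmb8 at 117 ± 19.4 and Psmb9 at 89.2 ± 11.8 TPM. The order was the same in all 10 libraries for each pair of neighbours but one, since H2-D1 lay above H2-T23 in only 4 of the 10. The ranges over all libraries overlapped for Tapbp and Tap2, for Psmb10 and Psmb8, and for Psmb8 and Psmb9, although the first of each pair was higher in every library. No gene rested on few reads, the lowest count in any library being the 597 reads of Psmb9.

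**Figure D1:**
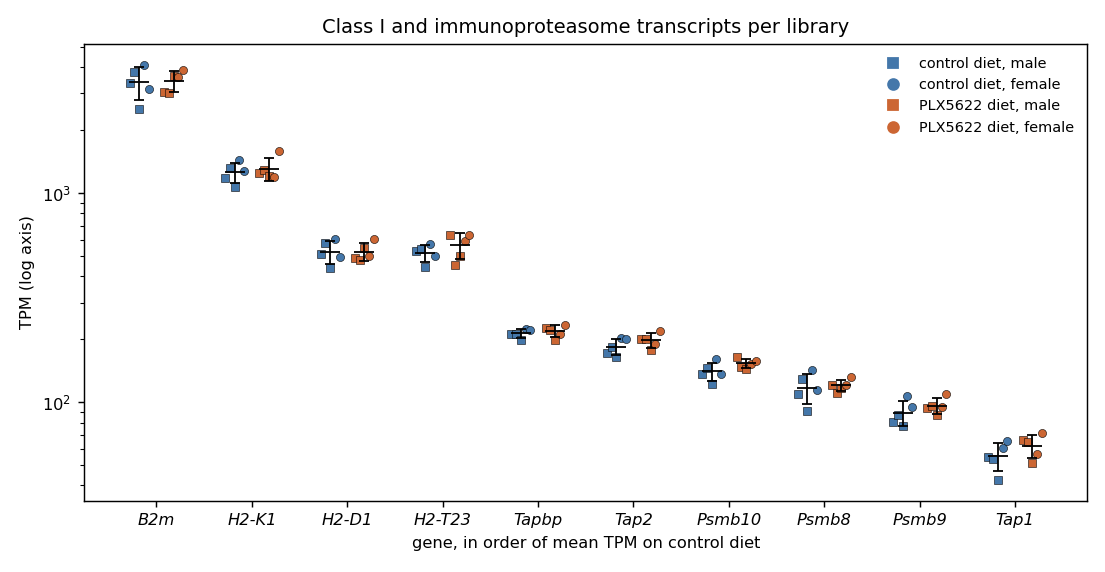
TPM on a log axis of the 10 genes, ordered by mean level on control diet. Each symbol is a library, coloured by diet with the sexes as different symbols, and bars give mean and SD (n = 5). The control and PLX5622 libraries overlap for every gene, from B2m at 3384 and 3439 TPM to Tap1 at 55.3 and 61.9 TPM.

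None of the 10 genes differed between the diets beyond the spread between libraries. With limma on log2(TPM + 1), sex in the model and Benjamini-Hochberg adjustment over all genes tested, 0 of the 10 passed an adjusted p of 0.05, against 17 of the 12751 genes (0.133%). The groups overlapped for all 10, so that 0 of the 10 were separated, against 0.525% of all genes with every PLX5622 library above every control library and 1.27% with every one below. None of the 10 had an unadjusted p under 0.05 either, against 8.31% of all genes, 0 of the 10 passed by voom on recovered reads, and 0 passed in the authors' deposited DESeq2 table, where 116 of 19474 genes did (0.596%). All 10 estimates lay above 0, with a median of 0.08 on the log2 scale, while 44.3% of all genes lay above 0 and their median was -0.02. These estimates share the same 10 libraries and are not independent of each other. The 95% intervals for the 10 genes ran from 0.861-fold to 1.31-fold on the TPM + 1 scale, and the intervals of all 10 excluded a 1.5-fold change either way.

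Among the heavy chains, H2-K1 measured 1184, 1319 and 1071 TPM in control males and 1435 and 1279 TPM in control females, against 1246, 1293 and 1204 TPM in males given PLX5622 and 1198 and 1595 TPM in PLX5622 females. The diets overlapped, with PLX5622 female 2 the highest of all 10 libraries. The log2 fold change was 0.05 ± 0.08 (SE; limma adjusted p = 0.936). H2-D1 measured 511, 579 and 439 TPM in control males, 603 and 496 TPM in control females, 492, 479 and 548 TPM in males given PLX5622 and 503 and 606 TPM in PLX5622 females. Its means of 525 and 526 TPM were nearly equal, and the log2 fold change of 0.00 ± 0.09 was the smallest of the 10 (limma adjusted p = 0.997). For H2-T23 the values were 527, 542 and 444 TPM in control males, 572 and 500 TPM in control females, 628, 455 and 502 TPM in males given PLX5622 and 594 and 632 TPM in PLX5622 females. Here 3 of the 5 PLX5622 libraries lay above every control library and the other 2 within the control range, and the log2 fold change was 0.11 ± 0.09 (limma adjusted p = 0.8294).

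B2m, which every class I heavy chain needs to reach the surface, measured 3364, 3777 and 2525 TPM in control males, 4113 and 3141 TPM in control females, 3038, 3007 and 3646 TPM in males given PLX5622 and 3611 and 3895 TPM in PLX5622 females. The lowest and the highest of the 10 libraries were both controls. The log2 fold change of B2m was 0.04 ± 0.12 (limma adjusted p = 0.975).

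Of the transporter genes, Tap1 had the largest estimate among the 10 genes, and also the lowest level. It measured 54.98, 53.3 and 42.5 TPM in control males, 60.6 and 65.1 TPM in control females, 65.7, 64.6 and 51.3 TPM in males given PLX5622 and 56.6 and 71.3 TPM in PLX5622 females. The groups overlapped, since control female 2 exceeded 3 of the 5 PLX5622 libraries, and the log2 fold change was 0.16 ± 0.10 with a 95% interval of -0.06 to 0.39 (limma adjusted p = 0.744). Tap2, the partner of Tap1 in the transporter, averaged 198 ± 15.4 TPM on PLX5622, with a log2 fold change of 0.10 ± 0.06 (limma adjusted p = 0.739). Tapbp varied least, with a coefficient of variation of 4.82% in controls against up to 18.0% for B2m, and its log2 fold change was 0.04 ± 0.05 with a mean of 219 ± 14.0 TPM on PLX5622 (limma adjusted p = 0.936).

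The immunosubunits replace the constitutive catalytic subunits when new proteasomes are assembled. Psmb10 came closest to the threshold of the 10 genes. It measured 136, 146 and 122 TPM in control males, 160 and 137 TPM in control females, 165, 148 and 145 TPM in males given PLX5622 and 153 and 158 TPM in PLX5622 females. One control library, labelled control female 1, lay above 4 of the 5 PLX5622 libraries, and the log2 fold change was 0.13 ± 0.07 (limma unadjusted p = 0.0754, adjusted p = 0.669). Psmb9 averaged 96.5 ± 8.10 TPM on PLX5622, with a log2 fold change of 0.12 ± 0.07 (limma adjusted p = 0.709). Psmb8 averaged 121 ± 7.56 TPM, with a log2 fold change of 0.06 ± 0.09 (limma adjusted p = 0.938).

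**Figure D2:**
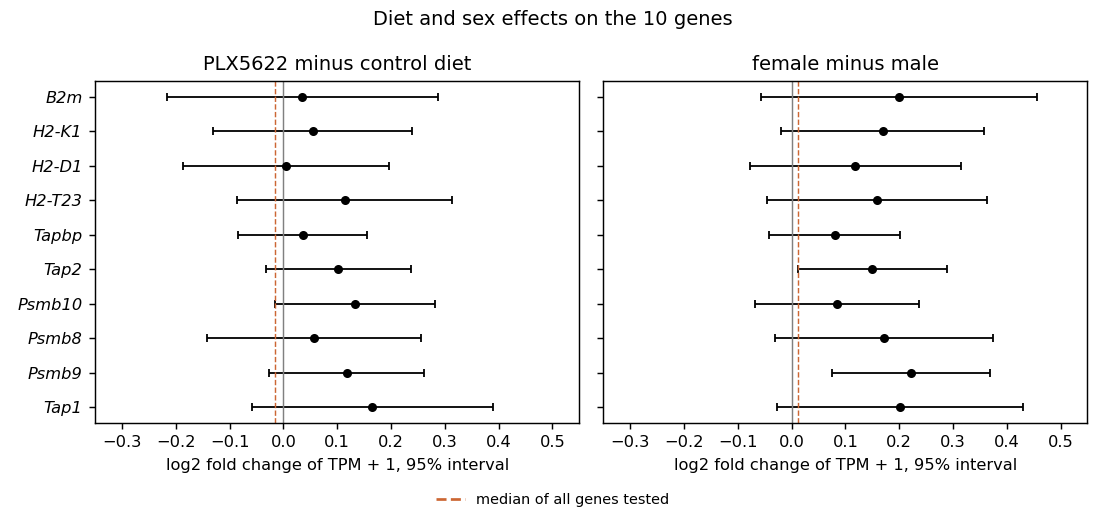
Log2 fold change of TPM + 1 with its 95% interval from limma for each of the 10 genes, PLX5622 minus control on the left and female minus male on the right. The dashed line is the median of all genes tested (-0.02 and 0.01). All points lie above 0 in both panels; every diet interval includes 0, and in the sex panel only those of Tap2 and Psmb9 do not.

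Leaving out the library labelled control female 1 moved the diet estimates to between 0.04 (Tapbp) and 0.18 (Psmb10), and none passed the threshold (lowest limma adjusted p = 0.4926). Then 2 of the 10 had an unadjusted p under 0.05, Psmb10 (limma unadjusted p = 0.0202) and Psmb9 (limma unadjusted p = 0.0321, log2 fold change 0.16). In that fit 1059 of the 12751 genes had an unadjusted p under 0.05 in either direction. The estimate of Psmb8 became 0.12 in place of 0.06, that of B2m 0.09 in place of 0.04, that of H2-K1 0.08 in place of 0.05 and that of H2-D1 0.05 in place of 0.00. Leaving out control male 3, the lowest library for all 10 genes, moved them to between -0.05 and 0.09, and 3 genes, H2-D1, B2m and Psmb8, were then below 0.

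The share of immunosubunits among the catalytic subunits was compared as a ratio of TPM within each library. Psmb8, the chymotrypsin-like immunosubunit, stood at 0.883 ± 0.143 of Psmb5, the subunit it replaces, in controls and at 0.917 ± 0.0998 on PLX5622 (SD, n = 5). By library this ratio was 0.824, 0.956 and 0.683 in control males, 1.06 and 0.888 in control females, 0.823, 0.888 and 0.937 in males given PLX5622 and 0.857 and 1.08 in the females. Psmb8 exceeded Psmb5 in 2 of the 10 libraries, both from females, one on each diet. Psmb9 stood at 0.511 ± 0.0817 of Psmb6 in controls and 0.535 ± 0.0836 on PLX5622, and was lower than Psmb6 in every library. Psmb10 stood at 0.584 ± 0.0505 of Psmb7 in controls and 0.652 ± 0.0849 on PLX5622, with 0.595, 0.533 and 0.532 in control males, 0.611 and 0.648 in control females, 0.699, 0.618 and 0.540 in males given PLX5622 and 0.636 and 0.765 in the females. None of the 3 ratios differed between diets in an exact two-sided permutation test within sex. The differences in mean log2 ratio were 0.06 (p = 0.65), 0.07 (p = 0.583) and 0.15 (p = 0.117), with exact permutation p adjusted over the 3 ratios of 0.65, 0.65 and 0.35. The smallest p this design allows is 0.0167. Without the library labelled control female 1 the differences were 0.12, 0.07 and 0.14 (exact permutation p = 0.417, 0.6 and 0.217), and without control male 3 that of Psmb8 to Psmb5 was -0.01. These are ratios of transcripts, and subunit protein was not measured.

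**Figure D3:**
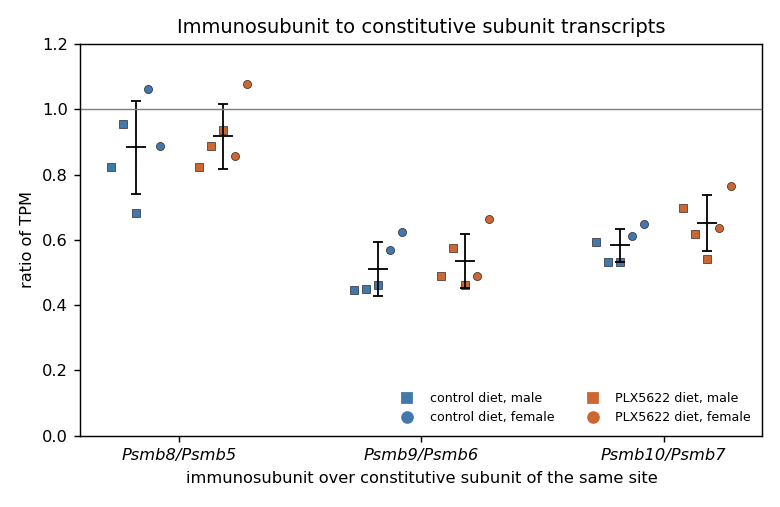
Ratio of TPM of each immunosubunit to the constitutive subunit of the same catalytic site, per library, with mean and SD (n = 5); colours give the diet and symbols the sex, and the grey line marks equal levels. The Psmb8 to Psmb5 ratio is the highest, at 0.883 and 0.917, and the diets overlap for all 3 ratios.

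The constitutive subunits had nearly equal means on both diets. Psmb5 averaged 133 ± 2.55 TPM on control diet against 132 ± 11.5 TPM on PLX5622, Psmb6 176 ± 16.7 and 182 ± 14.3 TPM, and Psmb7 241 ± 26.3 and 238 ± 21.8 TPM. Of the 14 constitutive core genes, 0 passed the limma test, 0 had an unadjusted p under 0.05, and their median change was -0.01 on the log2 scale. Of 10 genes of proteasome regulators and assembly factors, led by the assembly chaperone Pomp (530 ± 40.2 and 557 ± 30.1 TPM) and the interferon-inducible activator subunit Psme1 (346 ± 33.6 and 357 ± 20.2 TPM), 0 passed, 0 had an unadjusted p under 0.05, and the median was 0.04.

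Other genes of the pathway also gave no adjusted call for diet, but their estimates lay on both sides of 0. Of 24 other class I genes in the table, 9 passed the filter on low values and 0 of these passed the limma test in either direction, none with an unadjusted p under 0.05. Of these 9, 5 estimates lay above 0 and 4 below, with a median of 0.005. Fcgrt, the neonatal Fc receptor that carries antibody and albumin across or back into cells, was the most abundant (807 ± 59.6 and 778 ± 80.2 TPM). H2-Q4, a non-classical class I gene, followed at 476 ± 42.8 and 506 ± 62.9 TPM. Of 9 peptide-loading genes 0 passed and 1 had an unadjusted p under 0.05, toward lower values on PLX5622. Of these 9, 3 estimates lay above 0 and 6 below, with a median of -0.03. Hspa5 and Calr, chaperones of the endoplasmic reticulum, stood at 1410 ± 78.9 and 802 ± 57.8 TPM on control diet and at 1463 ± 131 and 785 ± 78.8 TPM on PLX5622.

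Regulators of class I transcription were also examined, and 0 of 25 passed for diet, with 5 at an unadjusted p under 0.05. Nlrc5, the class I transactivator that works at these promoters, measured 13.7 ± 3.80 TPM on control diet against 13.01 ± 5.27 TPM on PLX5622 (log2 fold change -0.09 ± 0.14, limma adjusted p = 0.931). Irf1, an interferon-induced activator of the pathway, measured 132 ± 15.1 and 135 ± 8.20 TPM. The most abundant of the list, Socs3 and Rela, a feedback inhibitor of cytokine signalling and a subunit of NF-kappa-B, stood at 478 ± 21.5 and 246 ± 34.6 TPM on control diet and at 529 ± 33.7 and 247 ± 12.3 TPM on PLX5622.

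Targets of type I interferon, which raises class I genes too, had larger estimates than the class I genes, though none of the 33 tested passed the limma test. Their median log2 fold change was 0.26, with 32 of the 33 above 0, and 22 had an unadjusted p under 0.05 toward higher values on PLX5622, against 3.13% of all genes. Without control male 3 the median was 0.21, with 30 of 33 above 0 and 16 at an unadjusted p under 0.05. Without the library labelled control female 1, whose mean deviation of 0.21 on this list lay above those of all 3 males given PLX5622, the median was 0.31, with 32 above 0 and 23 at an unadjusted p under 0.05. Irf7, the factor that amplifies the interferon response, measured 227 ± 45.0 TPM on control diet against 337 ± 65.4 TPM on PLX5622 (log2 fold change 0.57 ± 0.12, limma adjusted p = 0.212). The authors' deposited table called 2 of the list higher, Irf7 and Mx2. The most abundant, Ly6e and Ifitm3, both restriction factors against virus entry, stood at 1633 ± 182 and 1077 ± 197 TPM on control diet and at 1721 ± 65.4 and 1248 ± 87.4 TPM on PLX5622. Of 17 targets of interferon gamma 0 passed, 13 lay above 0 and 1 had an unadjusted p under 0.05, with a median of 0.08, which was 0.01 without control male 3 (10 above 0) and 0.07 without the library labelled control female 1 (4 at an unadjusted p under 0.05); Gbp3 and Gbp2, guanylate-binding proteins, stood at 253 ± 42.6 and 173 ± 23.96 TPM on control diet and at 265 ± 20.1 and 175 ± 7.21 TPM on PLX5622. Whether the class I genes and the interferon targets differ in their response was not tested.

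The class I genes were higher in females than in males on average, by amounts that did not pass adjustment. In the same limma model 0 of the 10 passed for sex, against 8 of 12751 genes (0.0627%), and all 10 estimates lay above 0 with a median of 0.16, against 54.4% of all genes above 0 and a median of 0.01. Psmb9 averaged 102 ± 7.60 TPM in 4 female libraries and 87.0 ± 7.43 TPM in 6 male libraries. The female libraries lay between 94.7 and 109 TPM and the male ones between 77.4 and 96.5 TPM, so they overlapped. Its log2 fold change, female minus male, was 0.22 ± 0.07 (limma unadjusted p = 0.00653, adjusted p = 0.753). Tap2 averaged 203 ± 11.8 TPM in females and 183 ± 15.1 TPM in males, with a log2 fold change of 0.15 ± 0.06 (limma unadjusted p = 0.0354, adjusted p = 0.827). These were the 2 of 10 with an unadjusted p under 0.05, against 3.39% of all genes toward higher values in females. Without the library labelled control female 1, the unadjusted limma p was 0.0292 for Psmb9 and 0.0934 for Tap2. In that fit 1365 of the 12751 genes had an unadjusted p under 0.05 for sex in either direction. All 10 estimates were then smaller, from 0.03 (Psmb10) to 0.19 (Tap1), and 0 passed. By mean deviation over the 10 genes, control female 2 (-0.01) and PLX5622 female 1 (0.02) lay within the male range of -0.28 to 0.05.

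The class I transactivator Nlrc5 showed a larger difference between the sexes than any of the 10 genes. It measured 17.2 and 17.5 TPM in control females and 13.8 and 21.9 TPM in PLX5622 females, against 11.8, 13.3 and 8.46 TPM in control males and 10.6, 9.14 and 9.68 TPM in PLX5622 males. The lowest female value was 13.8 TPM and the highest male value 13.3 TPM. How many of all genes separate the sexes in this way was not counted. Of the 25 regulators on its list, 15 had estimates above 0 for females, with a median of 0.02, and 0 passed. At an unadjusted p under 0.05 were 4 of the 25 toward higher values in females and 1 toward lower. The log2 fold change of Nlrc5 was 0.69 ± 0.14 (limma unadjusted p = 0.000353, adjusted p = 0.347). By contrast Irf1 stood at 132 ± 4.21 and 134 ± 15.0 TPM, and 0 of the 14 constitutive core proteasome genes had an estimate above 0 for females. Targets of type I interferon lay above 0 in 33 of 33, 25 of them at an unadjusted p under 0.05, and those of interferon gamma in 16 of 17, 11 of them at an unadjusted p under 0.05, with 0 adjusted calls in both lists.

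The diet estimates were also compared between the sexes. In the limma model with an interaction term 0 of the 10 genes and 0 of the 12751 genes (0%) passed, with 0 of the 10 and 312 of all genes (2.45%) at an unadjusted p under 0.05. The interaction estimates of the 10 genes ran from -0.25 (Tap1) to 0.14 (H2-T23), 7 of them below 0. Without the library labelled control female 1 they ran from -0.30 (Tap1) to 0.24 (B2m), and 0 passed.

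Several libraries were high or low for most of the 10 genes at once. Control male 3 was the lowest of the 10 libraries for all 10 genes, with a mean deviation of -0.28 on the log2 scale. PLX5622 female 2 was the highest for 7 of the genes, with a mean deviation of 0.21, and the library labelled control female 1 for 2, with 0.16. In both, all 10 genes lay above their own mean over the libraries. Over the other libraries the mean deviation ran from -0.08 in control male 1 to 0.05 in PLX5622 male 1. Endothelial markers stayed within -0.04 to 0.04 in all 10 libraries. Control male 3 was also the lowest library for the targets of type I interferon (-0.45) and of interferon gamma (-0.29), and held the highest microglial sum of 232 TPM, while the library labelled control female 1 held the lowest control sum of 54.9 TPM. The part of these in the level of the class I genes was not tested.

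**Figure D4:**
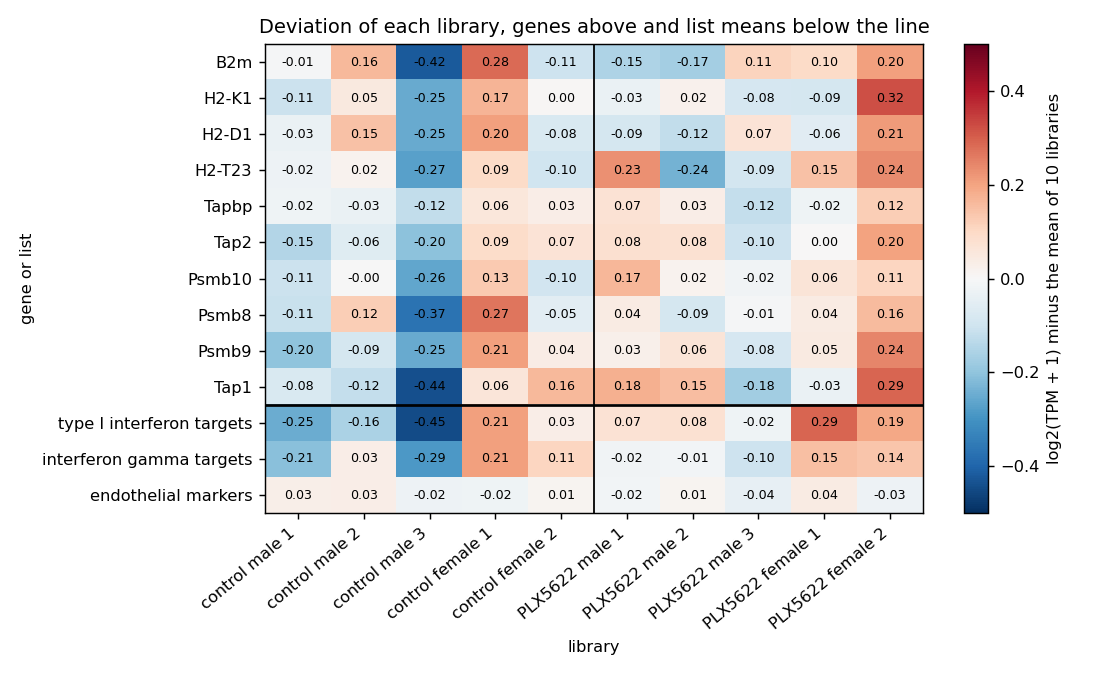
Deviation of log2(TPM + 1) from the mean of 10 libraries, one column per library and one row per gene, with the mean deviation of 3 gene lists below the line. Red is higher and blue lower, and the number is printed in each cell. Control male 3 is below the mean throughout, while endothelial markers stay within -0.04 to 0.04.

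Pairwise correlations of log2(TPM + 1) over the 10 libraries were above 0 for all 45 pairs, with Pearson's r from 0.349 to 0.952 and a median of 0.707. By permutation, 24 pairs had an adjusted p under 0.05 for Pearson's r and 17 for Spearman's rho, adjusted over the 45. The other 21 and 28 pairs did not pass. How many pairs of other genes would pass in these libraries was not counted, so the counts are not shown to be particular to the class I genes. Among the 24 pairs, r without the 2 libraries farthest from the median ran from 0.325 to 0.955, with a median of 0.702. After removal of sex and diet means, r ran from 0.109 to 0.936 with a median of 0.634. Tap2 and Psmb9 gave the highest value, r = 0.952 and rho = 0.903 (permutation adjusted p = 0.00045 and 0.00821, n = 10), and r = 0.892 without the 2 libraries farthest from the median of Tap2. B2m and H2-D1, a light and a heavy chain, gave r = 0.942 and rho = 0.976 (permutation adjusted p = 0.00045 and 0.0018, n = 10), and r = 0.89 without the 2 farthest libraries. Tapbp and Tap1, which bind each other, gave r = 0.935 and rho = 0.964 (permutation adjusted p = 0.00105 and 0.00195, n = 10), and r = 0.926 without the 2 farthest. Psmb9 and Tap1, which share the promoter stretch printed above, gave r = 0.822 and rho = 0.745 (permutation adjusted p = 0.0129 and 0.0479, n = 10), and r = 0.729 without the 2 farthest. The weakest relations were those of B2m to Tapbp, at r = 0.349 and rho = 0.285 (permutation adjusted p = 0.32 and 0.447, n = 10), and to Tap1, at r = 0.366 and rho = 0.115 (permutation adjusted p = 0.307 and 0.759, n = 10). Without the 2 farthest libraries these were -0.21 and -0.334. All pairs share the same libraries, of which control male 3 was the lowest for every gene. Without control male 3, r ran from -0.264 to 0.931 with a median of 0.519, and 3 of the 45 pairs were at or below 0. Without the library labelled control female 1, r ran from 0.272 to 0.971 with a median of 0.684.

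**Figure D5:**
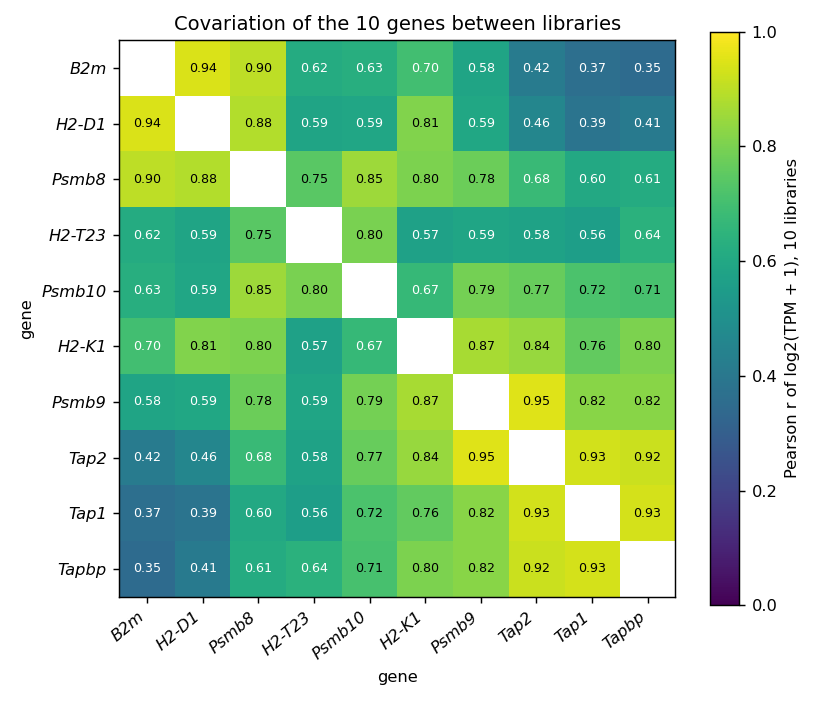
Pearson's r of log2(TPM + 1) between each pair of the 10 genes over 10 libraries, with its value in each cell. The pairs B2m with H2-D1 (0.942) and Tap2 with Psmb9 (0.952) are among the highest, and B2m with Tapbp (0.349) and Tap1 (0.366) are the lowest.

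The genes whose pattern over the 10 libraries was most like the mean of the 10 class I genes were taken from 9858 genes with a mean of at least 5 TPM. They were Nudt13 (r = 0.937), Stx18 (0.933), Ly6e (0.916), H2-Q4 (0.897), Cited4 (0.896) and Zbp1 (0.896), each value being Pearson's r over 10 libraries, as a description. Ly6e and Zbp1 belong to the list of type I interferon targets and H2-Q4 to the other class I genes. Nlrc5 ranked 84 by the same measure (r = 0.775), whereas Irf1 gave r = -0.265.

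Sequence shared between class I genes can limit how far single heavy chains are told apart. Of all stretches of 50 bases in GENCODE transcripts (GRCm38), 9.63% of those of H2-K1, 12.8% of H2-D1 and 13.6% of H2-T23 also occur in another gene, and at 100 bases the shares were 0.957%, 3.59% and 3.15%. B2m, Psmb9 and Psmb10 shared none at either length. The sources used here do not state how reads matching several genes were counted. The levels of the 3 heavy chains are therefore uncertain by an amount that was not measured. Sharing was not measured for H2-Q4. The libraries kept no strand, and the genes that overlap B2m, H2-T23 and Tapbp (Patl2, A930015D03Rik and Gm19412) were listed at no more than 0.209, 1.15 and 6.62 TPM.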

How the data were processed

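The authors deposited TPM per gene and library, and a DESeq2 table of PLX5622 against control with log2 fold changes and their errors, p-values, and a test statistic (a score) and a mean normalized count per gene (also entered as a score). Per the submitters' processing notes, STAR 2.7.10a, featureCounts of Subread 2.0.1, DESeq2 1.32.0, R 4.1.0 and mm39 were used by the authors; no source used here states the model behind that table.

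TPM is not a count, so limma 3.58.1 (R 4.3.3) was fitted to log2(TPM + 1), with trended variance, sex and diet, over genes at 1 TPM or more in at least 5 of 10 libraries. Fold changes are on that scale, which understates low genes. Libraries labelled as separate biological replicates were the units. Whole reads, recovered from TPM and the deposited mean counts (100% whole within 0.05 reads), gave the depths and a voom alternative. The TPM ratios were compared by exact permutation within sex (120 splits), correlations by 100000 resamples. The interferon lists and the correlations without control female 1 and control male 3 were added after seeing the data.

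The 10 genes and all lists were chosen with earlier results of these data known. Named outside the members were, per list, up to 3 genes past the threshold or else the 2 most abundant, a fixed set of regulators, constitutive subunits and cell markers, and the 6 most alike genes; Mx2, H2-Aa and H2-Eb1 were named after their values were seen. Some genes under this rule are not reported here. Promoter sequences are RefSeq's (GRCm38.p6) and were matched by symbol; coordinates of other builds were not mixed with them.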

Additional observations from a re-analysis of the deposited data

Results flagged for a closer look

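In the PLX5622 group, H2-K1 reached 1595 TPM in PLX5622 female 2, apart from the 1198 to 1293 TPM of the other 4 libraries: the gap to the nearest was 0.761 of the range, above the critical value of 0.71 for 5 samples. This was 1 of 26 sets of 5 values examined, and chance marks about 1 in 20 such sets. The same library was the highest of all 10 for 7 of the 10 class I genes, and without it the log2 fold change of H2-K1 between diets was -0.00499 in place of 0.05.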

How the results depend on the processing

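No class I gene passed the threshold in any of 23 alternative fits for diet or 19 for sex, and all 190 sex values kept their direction. The 10 diet estimates kept their sign in 217 of 230 values and the interaction estimates in 174 of 190. For diet, the estimate of H2-D1 turned to -0.0408 with sample weights and -0.00147 in males only, that of B2m to -0.0344 with sample weights and that of Psmb8 to -0.0077 in females only. With 1 library left out at a time, the diet estimates ran from -0.0506 to 0.0583 for H2-D1, -0.0529 to 0.106 for B2m, -0.0172 to 0.117 for Psmb8 and -0.00499 to 0.12 for H2-K1, and the difference in the Psmb8 to Psmb5 log2 ratio from -0.013 to 0.127. The interaction estimates then ran from -0.25 to 0.16 for H2-K1, -0.12 to 0.16 for H2-D1, -0.15 to 0.24 for B2m, -0.12 to 0.0247 for Tapbp, -0.27 to 0.0511 for Psmb8 and -0.22 to 0.00393 for Psmb10. The cause was not tested. Unadjusted p under 0.05 appeared for diet in 3 of 23 alternatives for Psmb9, 2 each for Tap1 and Psmb10 and 1 for Tap2, and for sex in 19 of 19 for Psmb9, 9 for Tap2, 2 each for H2-K1, B2m and Tap1 and 1 each for H2-T23 and Psmb8.

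Over all genes, the count called for diet was 17, and 7 with no filter on low values, 7 with a constant prior variance, 8 in males only and 0 in females only (limma, with 502 genes at an unadjusted p under 0.05). With 1 library left out it ran from 5 to 16: 7 without control male 1, 5 without control male 2, 9 without control female 2, 9 without PLX5622 male 1, 6 without PLX5622 male 2 and 9 without PLX5622 female 1. With the replicate number as a block it was 11, and the block changed no call among the 10 genes (Tap1 limma unadjusted p = 0.0413, adjusted p = 0.498). Deviations from diet and sex means correlated at 0.0309 for the male libraries numbered 2 and at 0.121 and 0.19 for the other males. With 2 females per diet, both female pairs necessarily gave the same value, 0.157. Libraries of unlike number were not compared, so these values cannot show whether the numbers pair the samples. Each class I gene had 597 reads or more in every library; 5 libraries per diet limit what size of difference can be shown.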

Other observations

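MHC class II genes, which serve antigen presentation by dedicated immune cells, were at low levels in these sorted cells, and 0 of 5 tested passed the limma test for diet, 0 of them at an unadjusted p under 0.05. Cd74, the invariant chain, measured 3.17 ± 2.67 TPM in 4 female and 10.06 ± 3.99 TPM in 6 male libraries, a log2 fold change, female minus male, of -1.50 ± 0.35 (limma unadjusted p = 0.00103, adjusted p = 0.457). H2-Aa and H2-Eb1, which each encode 1 chain of a class II molecule, had estimates of -1.004 and -0.99 (limma adjusted p = 0.622 for both). All 5 tested class II genes had estimates below 0 for females, the opposite sign to the 10 class I genes. Cd79a, part of the B cell receptor, measured 1.21 ± 0.58 TPM in females and 4.06 ± 1.16 TPM in males (limma adjusted p = 0.0957). The sum of 10 lymphocyte markers was 1.69 to 4.22 TPM in females and 4.64 to 7.79 TPM in males. The part of these cells in the class II levels was not tested.

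Markers of other cell types were examined as well. The authors' deposited table called 15 of the 17 microglial genes lower. None of the tested genes passed in limma for border macrophages (1 tested), lymphocytes (1), neutrophils and monocytes (3), pericytes (8), smooth muscle (5) or endothelium (10), where 0, 0, 0, 1, 1 and 0 had an unadjusted p under 0.05.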
